A study of Mus musculus with 6 samples.

Results

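The genes described here are the mouse MCP-type (monocyte chemoattractant protein) chemokine genes Ccl2, Ccl7, Ccl8, Ccl11 and Ccl12 and the receptor gene Ccr2. They were taken by name, and their probes were found through the RefSeq accession that the scanner files give for each spot. All 6 genes had exactly 1 probe each, so the members are 6 of 39429 probes and 6 of 29752 genes or unnamed transcripts tested. The Ccl2 probe was spotted 10 times on each array and the other probes once, which makes 15 of 43020 non-control spots. The family was chosen by its measured IL-4 against PBS signals on these same arrays, over all arrays and within slide 1. Its values in that comparison are therefore a description, and calls of its members are not read as a test.

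BV2 is a mouse microglial cell line immortalized with a retrovirus, and microglia are macrophages that live in the brain. For 24 hr, 3 samples of these cells were kept with IL-4 at a dose of 10 ng/ml, and 3 control samples were kept with PBS. The design text of the series calls the control untreated, and a description field adds human blood to the cells, while the treatment and cell line labels name PBS and BV2. The PBS label is followed here. All cells were grown in the same serum-containing medium on poly-L-lysine, and all samples come from 1 cell line. The labels do not say whether the replicates were separate cultures, so p-values rest on a spread between samples that may be technical. Each sample had its own Agilent array, read in 1 colour.

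MCP-type chemokines are small secreted proteins that attract monocytes, and CCR2 is the receptor through which CCL2, CCL7 and, in the mouse, CCL12 act on them. CCL7 also binds CCR1 and CCR3, and CCL11, or eotaxin, attracts eosinophils through CCR3. Mouse CCL8 acts mainly through CCR8. Brain macrophages make CCL2 in inflammation, whereas CCR2 is typical of monocytes that enter the tissue from blood and is low in resident microglia. IL-4 signals through STAT6 and is the standard agent of alternative macrophage activation.

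Levels are given on a log2 scale on which 0 is the 75th percentile of processed signals of the same array, unless a signal itself is named. That percentile lay between 674 and 876, and between 87.9% and 98.0% of probes on an array were well above background, the flag of the scanner program. The lowest correlation across genes between arrays was 0.997 within the IL-4 group, 0.989 within the PBS group and 0.979 between the groups. By the file headers, slide 1 held all IL-4 arrays together with PBS replicate 1, while slide 2 held the other two PBS arrays. Differences of the members, and of many of the other genes named, are therefore also given within slide 1, against PBS replicate 1 alone. All 12 listed macrophage and microglia markers were tested. Their summed level, in multiples of the 75th percentile, was 61.4 to 66.0 on IL-4 arrays and 63.9 to 77.5 on PBS arrays. Of these markers, 2 fell and 0 rose, beside 2.54% of all genes called lower and 0.807% called higher. The differences were -0.95 for Tyrobp and -0.72 for Aif1 (adjusted p = 0.040 and 0.037, limma), or -0.54 and -0.49 within slide 1. Neither passed with slide as a block. The median of the list was -0.34. For 5 of 6 inflammatory monocyte markers the summed level was 1.40 to 1.56 with IL-4 and 1.30 to 1.57 with PBS. For 5 of 6 fibroblast markers it was 0.297 to 0.378 with IL-4 and 0.334 to 0.395 with PBS. Sums were higher for 5 endothelium markers, at 9.95 to 13.3 with IL-4 and 10.0 to 14.8 with PBS. For 4 of 6 astrocyte markers the sum was 8.50 to 9.03 with IL-4 and 8.78 to 11.5 with PBS. The brightest genes in these sums were Pecam1 (3.40 with IL-4, 3.48 with PBS) and Aldoc (3.05 and 3.30). Among the defining markers of microglia, Tmem119 was at -3.63 and Sall1 at -4.97 with IL-4, against -3.24 and -4.68 with PBS. The differences were -0.39 and -0.28 over all arrays, neither of which passed, and -0.093 and -0.28 within slide 1. The sums hold the markers measured on all 6 arrays, and those of 2 lists did not overlap between the groups. For 6 of 8 lymphocyte markers it was 1.86 to 1.99 with IL-4 and 0.933 to 1.54 with PBS, and for 5 neuron markers 2.07 to 2.45 with IL-4 and 1.63 to 1.90 with PBS. Left out of the sums, since 1 PBS array had a spot flagged, were Cd4 among the lymphocyte markers, with a difference of 1.42 over the other 5 arrays, Elane among the neutrophil markers, with 1.78, and the astrocyte marker Aqp4. Cd4 and Elane did not pass (adjusted p = 0.058 and 0.10, limma), and differed by 0.78 and 0.53 within slide 1. The part of these markers in the values below was not tested.

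Ccl7 showed the widest gap of the 6 genes. Its processed signal was 1187, 1266 and 1624 on the 3 IL-4 arrays, against 247, 205 and 260 on the 3 PBS arrays. Every IL-4 array was thus far above every PBS array. The levels averaged 0.81 ± 0.30 with IL-4 and -1.67 ± 0.17 with PBS (SD, n = 3 each), a log2 difference of 2.48 ± 0.17 (SE of the fit) or 5.58-fold. In bulk RNA of this kind, more expressing cells and more RNA per cell cannot be told apart. Against PBS replicate 1 of the same slide the difference was 2.63. Among all genes tested, Ccl7 held rank 8 by the size of its rise over all arrays and rank 4 within slide 1.

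Ccl2, the founding member of the family and the main ligand of CCR2, was higher with IL-4 by a smaller step. Its processed signal was 18602, 20863 and 23393 with IL-4, against 11011, 10010 and 11167 with PBS. The groups did not overlap. The levels averaged 4.76 ± 0.21 with IL-4 and 3.83 ± 0.16 with PBS (SD, n = 3 each), a difference of 0.93 ± 0.14 or 1.91-fold, and the difference within slide 1 was 1.11. No spot of this probe was saturated.

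The 10 copies of the Ccl2 probe show how far the spots of 1 array differ. The SD of log2 signal between copies was 0.0835 to 0.0882 on IL-4 arrays and 0.0928 to 0.0952 on PBS arrays. The arrays of a group differed by more than that: the SD between arrays was 0.21 with IL-4 and 0.16 with PBS. The lowest single copy on any IL-4 array stood at 4.49, above the highest single copy on any PBS array, at 4.05. Copies share their RNA sample and were averaged, so they are not counted as replicates.

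**Figure D1:**
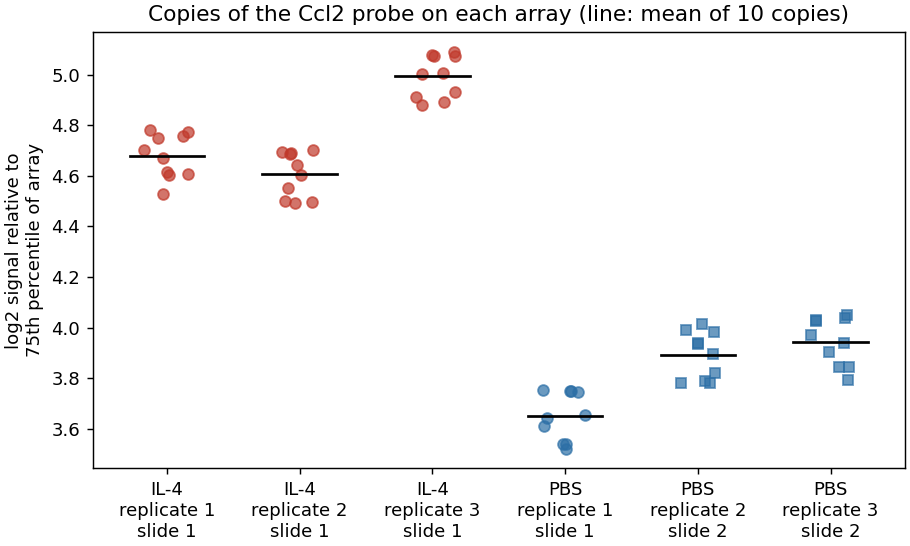
Each point is 1 copy of the Ccl2 probe, as a level on the log2 scale in use here, for the 3 IL-4 and the 3 PBS arrays (circles slide 1, squares slide 2); lines are means of 10 copies. The lowest copy on an IL-4 array, at 4.49, lies above the highest copy on a PBS array, at 4.05.

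Ccl12, which encodes the mouse chemokine MCP-5 and is a close relative of Ccl2, was higher with IL-4 as well. Its processed signal was 215, 254 and 245 with IL-4, against 130, 89.8 and 99.0 with PBS, with no overlap. The levels averaged -1.70 ± 0.10 with IL-4 and -2.84 ± 0.084 with PBS (SD, n = 3 each), a difference of 1.15 ± 0.11 or 2.22-fold. Within slide 1 it was 1.05. With normexp background correction the difference was smaller, at 0.79 with the 75th percentile. The probe sequences are not in the files used here, so hybridisation of related chemokine transcripts to the Ccl12 or Ccl2 probe was not tested.

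**Figure D2:**
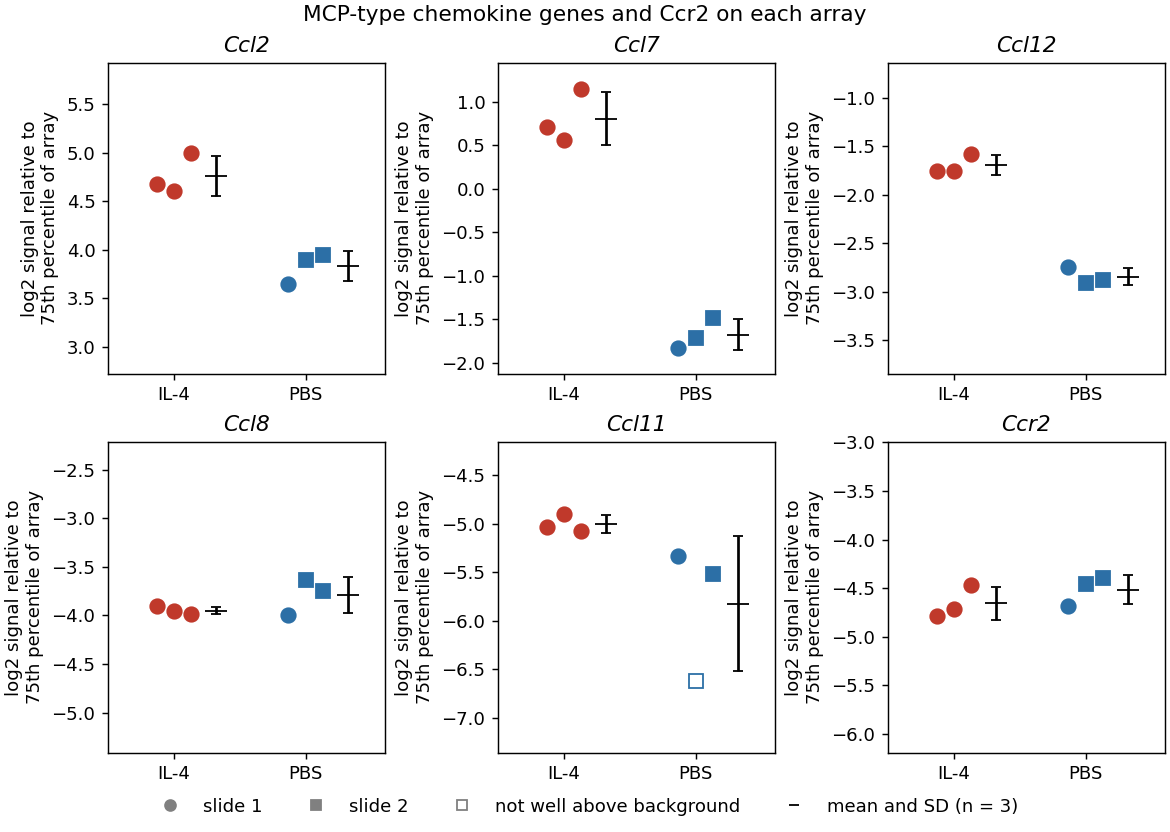
Level (log2, 0 at the 75th percentile of the array) of each of the 6 genes, IL-4 left and PBS right, 1 point per array; bars are the mean and SD (n = 3), circles slide 1, squares slide 2, and the open square is not well above background. Ccl7, Ccl2 and Ccl12 are clearly apart between the groups, with differences of 2.48, 0.93 and 1.15, whereas Ccl8 and Ccr2 overlap.

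Ccl8, the gene next to Ccl12 on chromosome 11, did not share this difference. Its processed signal was 48.4, 55.2 and 46.4 with IL-4, against 54.9, 54.4 and 53.9 with PBS. The groups overlapped on the relative scale too, at -3.95 ± 0.039 with IL-4 and -3.79 ± 0.19 with PBS (SD, n = 3 each). The difference was -0.16 ± 0.12 over all arrays and 0.048 within slide 1, so its direction depended on the arrays used. The probe was dim but well above background on all 6 arrays, at 12.2 to 22.3 times the median of the negative control spots on IL-4 arrays and 15.0 to 26.5 times on PBS arrays.

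The order of the members in the RefSeq table of assembly GRCm38.p6 is Ccl2, Ccl7, Ccl11, Ccl12, Ccl8, all on chromosome 11, and Ccr2 lies on chromosome 9. The sequence table from RefSeq, of the same build, has promoter entries for 3 of the 6 genes, Ccl12, Ccl8 and Ccr2. The 250 bases before the start of Ccl12 and of Ccl8 are shown because these neighbours differed in their values, Ccl12 by 1.15 and Ccl8 by -0.16. They lie on the plus strand at chr11:82101595-82101844 for Ccl12 and chr11:82114935-82115184 for Ccl8. Capitals mark matches to GAGGAA, the core of sites for the myeloid factor PU.1 (TTCCTC on the other strand), and to the TATA box letters TATAAA.
Ccl12: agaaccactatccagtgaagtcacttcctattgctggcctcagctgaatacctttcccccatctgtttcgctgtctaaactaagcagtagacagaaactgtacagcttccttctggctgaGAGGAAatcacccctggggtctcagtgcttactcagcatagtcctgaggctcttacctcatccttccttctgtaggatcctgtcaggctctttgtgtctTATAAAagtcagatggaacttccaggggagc
Ccl8: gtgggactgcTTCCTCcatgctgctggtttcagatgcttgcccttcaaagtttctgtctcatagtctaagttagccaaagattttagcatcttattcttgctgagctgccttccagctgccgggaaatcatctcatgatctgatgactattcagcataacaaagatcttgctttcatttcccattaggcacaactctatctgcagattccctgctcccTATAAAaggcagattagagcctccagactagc

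Both windows hold a TATA box, whose first base lies 31 bases before the start of Ccl12 and 32 before that of Ccl8. Letters of that kind are present in 12.4% of 32851 RefSeq windows of the same length, searched on both strands. The PU.1 core lies 130 to 125 bases before the start of Ccl12 and, on the minus strand, 240 to 235 before that of Ccl8, and 23.3% of all windows hold it. The window of Ccr2 has neither. In a global alignment, 150 of 250 bases (60.0%) were identical between Ccl12 and Ccl8, against 51.2% between Ccl12 and Ccr2. None of the 3 windows held the STAT6-type palindrome (TTC and GAA with 4 bases between them), the STAT palindrome TTCNNNGAA, the AP-1 letters TGANTCA or the NF-kB consensus on either strand. Those were found in 5.85%, 7.02%, 6.75% and 3.90% of all windows. No match says only that these letters are not in these 250 bases.

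Ccl11, the eotaxin gene, had a probe near the limit of detection. Its processed signal was 22.1, 28.8 and 21.7 with IL-4, against 21.7, 6.84 and 15.9 with PBS. PBS replicate 2 was not well above background, and there the error that the scanner program gives for the spot was 52.2% of its signal, against 13.1% to 19.8% on the IL-4 arrays. The levels averaged -5.00 ± 0.096 with IL-4 and -5.82 ± 0.70 with PBS (SD, n = 3 each). The difference was 0.82 ± 0.30 over all arrays and 0.33 within slide 1. It was 0.42 without PBS replicate 2, and 0.15 with normexp and the 75th percentile, so 1 array and the background correction decide its size.

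Ccr2, the receptor of CCL2, differed by less than its spread. Its processed signal was 26.2, 32.6 and 33.1 with IL-4, against 34.0, 30.6 and 34.4 with PBS, and the groups overlapped. The levels averaged -4.66 ± 0.17 with IL-4 and -4.51 ± 0.15 with PBS (SD, n = 3 each), a difference of -0.14 ± 0.13. Within slide 1 it was 0.028. The probe was dim but well above background on all arrays. Its signal was 6.59 to 13.4 times the median of the negative controls with IL-4 and 8.46 to 16.5 times with PBS. On IL-4 replicate 1, its signal of 26.2 was not far above 18.8, the dimmest non-control spot well above background there. So near the limit of detection, the small difference does not show that Ccr2 was unchanged.

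**Figure D3:**
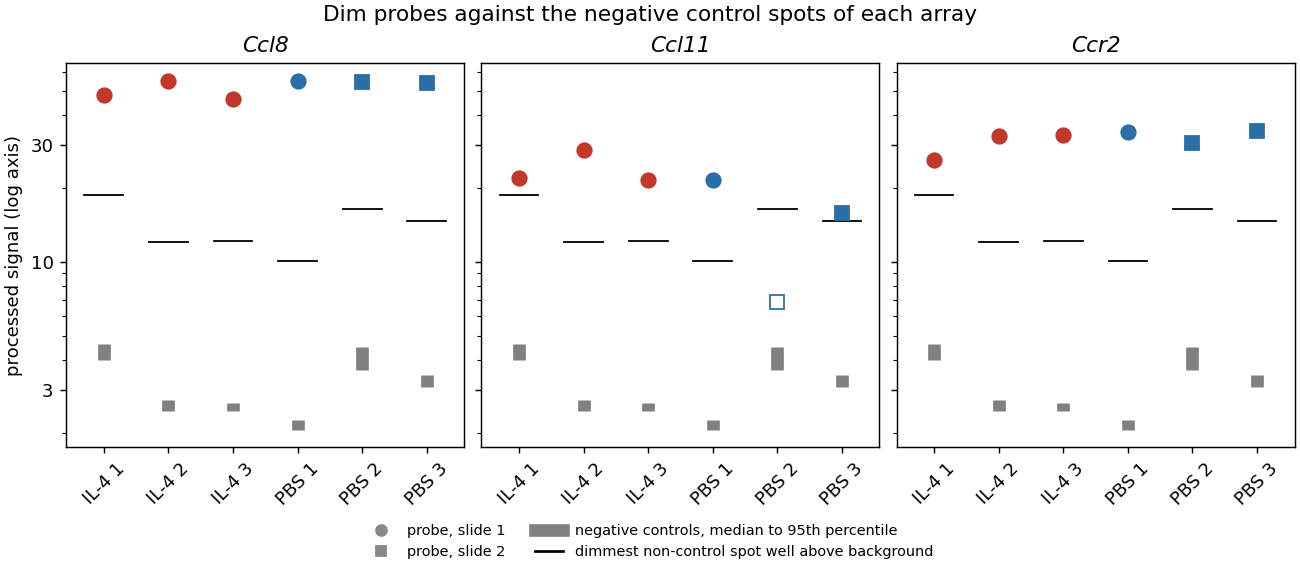
Processed signal (log axis) of the Ccl8, Ccl11 and Ccr2 probes on each array, IL-4 left of PBS, with the negative control spots (grey bar, median to 95th percentile) and the dimmest non-control spot well above background (black line) of the same array. The Ccl11 probe on PBS replicate 2, at 6.84, is the single point under its black line.

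Slide and group were partly confounded, and the members did not all move alike between the PBS arrays. PBS replicate 1 on slide 1 stood apart from the mean of PBS replicates 2 and 3 on slide 2 by -0.27 for Ccl2, -0.22 for Ccl7, -0.31 for Ccl8 and -0.26 for Ccr2. For Ccl12 and Ccl11 it stood higher, by 0.14 and 0.73. IL-4 replicate 1 and PBS replicate 2 lay in the first position of their slides, and IL-4 replicate 2 and PBS replicate 3 in the second. Taken as pairs of equal position, the differences were 2.43 and 2.05 for Ccl7, 0.79 and 0.66 for Ccl2, and 1.15 and 1.12 for Ccl12. They were 1.58 and 0.62 for Ccl11, -0.28 and -0.21 for Ccl8, and -0.33 and -0.32 for Ccr2.

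**Figure D4:**
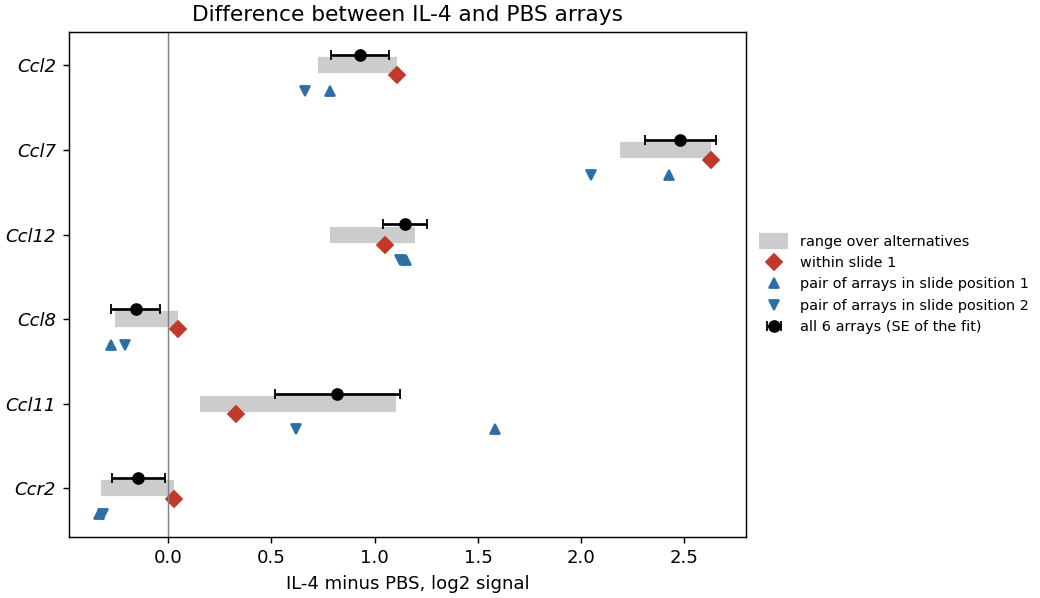
IL-4 minus PBS log2 difference of the 6 genes: black points with the SE of the fit over all 6 arrays, diamonds within slide 1, triangles for pairs of arrays in the same slide position, grey bars the range over the alternative settings. Ccl7 ranges from 2.19 to 2.63, Ccl2 from 0.72 to 1.11 and Ccl12 from 0.78 to 1.19, while the bars of Ccl8 and Ccr2 reach both sides of 0.

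In the limma fit over all genes, 3 of the 6 members (Ccl7, Ccl12 and Ccl2) passed as higher and none as lower, with a threshold of 0.05 on p adjusted by the Benjamini-Hochberg method, beside 0.807% of all genes tested called higher, 2.54% called lower and 3.35% called in either direction. With slide as a block, Ccl7 alone of the 6 passed, beside 0.0303% of all genes, changed in either direction. Between the groups, 4 of 6 members did not overlap with IL-4 higher, beside 18.3% of all genes, and none with IL-4 lower, beside 20% (38.3% in either direction). Ccl11, among these 4, entered the fit only through the IL-4 arrays, since PBS replicate 2 was not well above background. Since the members were chosen with this comparison known, nothing is read from these counts. The fit called 240 genes higher and 757 lower with IL-4, so 24.1% of calls were higher. That share was 50.1% with normexp and the 75th percentile, with 2030 genes higher and 2025 lower.

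The genes most like each member over the 6 arrays were found by the root mean square difference of their log2 values after each gene was centred on its own mean, among genes whose SD was at least 0.5 times that of the member. For Ccl7 the nearest was Arg1, the arginase gene used as a marker of alternative activation, at a distance of 0.26. Il6 followed at 0.59 and Fbxo15 at 0.63. The SD rule left 449 genes for Ccl7, against 5659 for Ccl2 and 3984 for Ccl12. For Ccl2 the nearest were Hbegf, Cish and Trib1 at 0.098, 0.10 and 0.10, and for Ccl12 Ralgds, Cish and Socs1 at 0.093, 0.12 and 0.15. Cish and Socs1 encode feedback inhibitors of cytokine receptor signalling. Within the family, Ccl2 and Ccl12 were 0.19 apart, whereas Ccl2 and Ccl7 were 0.78 apart. The distance is not scaled by the spread of a gene, so it mostly reflects the sizes of the IL-4 minus PBS differences. By this measure Ccr2, at 0.54, was nearer to Ccl2 than Ccl7 was. Ccl8 and Ccr2 were 0.13 apart. Their nearest genes, Hk1 at 0.010 for Ccl8 and Gucy1a2 at 0.021 for Ccr2, also differed by -0.17 and -0.16 over all arrays and by 0.022 and 0.011 within slide 1.

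The other genes that flank the cluster could not be followed. Of the 5 genes in the RefSeq order on each side, 3 of 10 had a probe, Ccl1 among them. None of the 3 was well above background on every array of either group.

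Other receptors of these chemokines gave no call over all 6 arrays. The differences were 0.39 ± 0.12 for Ccr3, the eotaxin receptor, 0.27 ± 0.11 for Ackr1 and 0.17 ± 0.13 for Ackr2, atypical receptors that bind chemokines without G protein signalling, and -0.060 ± 0.17 for Ccr1 (SE). Within slide 1 they were 0.60 for Ccr3, 0.13 for Ackr1, 0.14 for Ackr2 and -0.33 for Ccr1. Their adjusted p-values from limma were 0.071, 0.12, 0.36 and 0.81. At an unadjusted p under 0.05, 2 of the receptors (Ccr3 and Ackr1) were higher and 0 lower. Of all genes tested, 16.6% were higher and 17.5% lower at that threshold, and the counts at an unadjusted p below are to be read against these shares. Without PBS replicate 1, Ccr3 and Ackr1 passed (adjusted p = 0.031 and 0.020, limma), in a fit that called 19.6% of all genes higher. The sign for Ccr1 turned under normexp with quantile normalization and when IL-4 replicate 2 or PBS replicate 1 was left out, and that for Ackr2 with the mean of its probes.

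Among 22 genes of CCR2 signalling and desensitisation, 3 fell with IL-4, 0 rose and 19 did not pass. The share of all genes called lower was 2.54%. Rgs2, a regulator that speeds the shut-off of G proteins, was at 0.18 ± 0.14 with IL-4 and 1.24 ± 0.25 with PBS (SD, n = 3 each), and fell by 1.06 in log2 units, with an adjusted p of 0.026 by limma. Arrb1, which encodes beta-arrestin 1, was at -0.22 ± 0.045 with IL-4 and 0.38 ± 0.17 with PBS, and Grk2, a kinase that marks activated receptors for arrestin, at 1.70 ± 0.042 with IL-4 and 2.24 ± 0.12 with PBS. These 2 had adjusted p-values of 0.043 each (limma). At an unadjusted p under 0.05, 1 gene of the list was higher and 9 were lower, beside 16.6% and 17.5% of all genes. The list median was -0.12, beside -0.05 over all genes, and -0.0044 within slide 1, beside 0.0054. Nup85, whose product binds the tail of CCR2, differed by 0.0030 ± 0.091 (SE) over all arrays and by -0.013 within slide 1.

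Of 18 transcription factor genes that act on Ccl2, Cebpd fell by 0.54 in log2 units, at an adjusted p of 0.046 by limma, and 17 did not pass, with 0 higher. The shares of all genes called were 0.807% higher and 2.54% lower. At an unadjusted p under 0.05, 4 were higher and 2 lower, beside 16.6% and 17.5% of all genes. Among those that did not pass were the NF-kB genes Rela and Nfkb1, at 0.16 ± 0.12 and 0.47 ± 0.13, Fos at 0.55 ± 0.14, Cebpb at 0.48 ± 0.12 and Stat6 at -0.28 ± 0.14 (SE). Within slide 1 these were 0.27 for Rela, 0.27 for Nfkb1, 0.55 for Fos, 0.34 for Cebpb and 0.0059 for Stat6. Of 9 genes in the decay of cytokine mRNA, Zfp36, which encodes tristetraprolin, rose by 0.71 ± 0.12 and Rc3h1, which encodes roquin 1, fell by 0.61 in log2 units, at adjusted p-values of 0.035 and 0.041 by limma. These calls stand beside 0.807% of all genes called higher and 2.54% called lower. Of the 9 genes, 2 were higher and 4 lower at an unadjusted p under 0.05 (limma), beside 16.6% and 17.5% of all genes.

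Of 20 genes for cytokines that induce Ccl2 and for their receptors, 2 rose, 1 fell and 17 did not pass. The shares of all genes called were 0.807% higher and 2.54% lower. Of the 20 genes, 2 were higher and 6 lower at an unadjusted p under 0.05 (limma), beside 16.6% and 17.5% of all genes. Il6 was at 0.35 ± 0.32 with IL-4 and -1.09 ± 0.31 with PBS (SD, n = 3 each), and Il1r1, the interleukin-1 receptor gene, at -2.62 ± 0.10 with IL-4 and -3.12 ± 0.086 with PBS (adjusted p = 0.026 and 0.049, limma). Ifngr2, a chain of the interferon gamma receptor, fell by 0.59 in log2 units, at an adjusted p of 0.048 by limma. The inducer genes Tnf and Il1b, at 0.090 ± 0.13 and 0.085 ± 0.16 (SE) over all arrays and 0.12 and 0.097 within slide 1, did not pass. Of 6 tested genes for proteases that cut CC chemokines none passed, with 1 higher and 2 lower at an unadjusted p under 0.05 (limma), beside 16.6% and 17.5% of all genes. Of 8 other CC chemokine genes, Ccl9 fell by 0.69 in log2 units, at an adjusted p of 0.037 by limma, and 7 did not pass, beside 2.54% of all genes called lower. Of the 8 genes, 1 was higher and 5 were lower at an unadjusted p under 0.05 (limma), beside 16.6% and 17.5% of all genes. The median of these 8 was -0.40 over all arrays and -0.18 within slide 1.

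**Figure D5:**
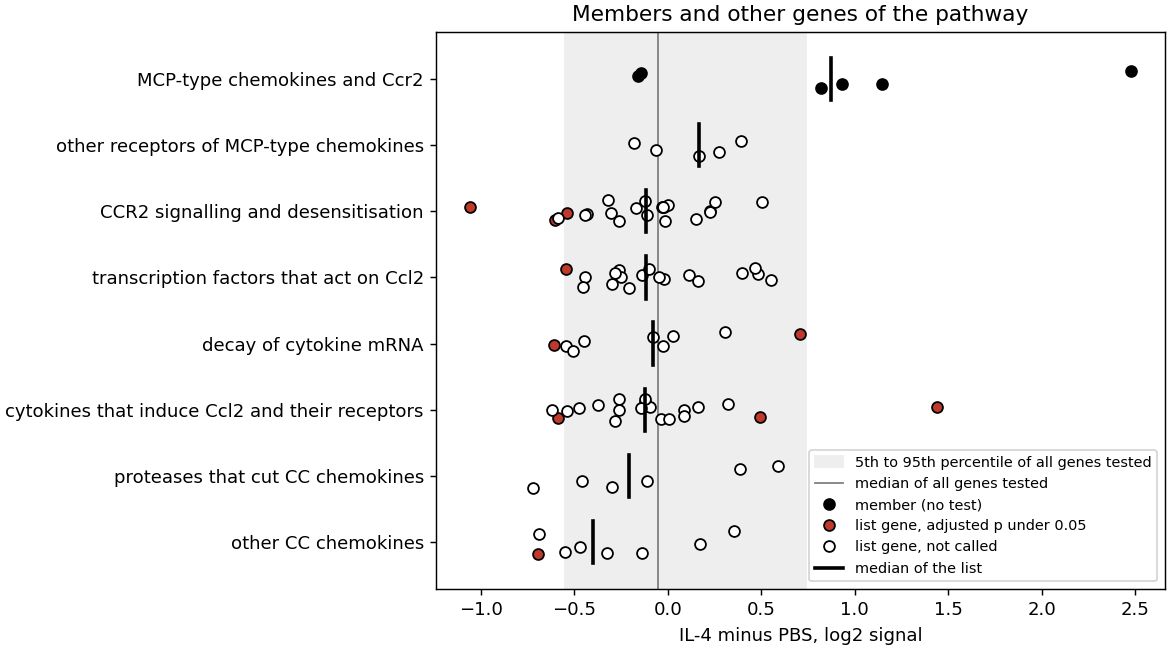
IL-4 minus PBS log2 difference of each tested gene in the 7 pathway lists and of the 6 members (black, without a test); filled red circles passed an adjusted p under 0.05 and black lines are list medians, over the 5th to 95th percentile of all genes (grey, -0.55 to 0.74). Ccl7, at 2.48, is the point farthest right, followed by Il6 at 1.44, and Rgs2, at -1.06, is the point farthest left.

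Over the 7 lists, 88 of 92 genes were tested. Beside 0.807% of all genes called higher and 2.54% called lower, 3 of these list genes rose and 7 fell, while 78 did not pass. These 10 calls were not stable. Each kept its call without PBS replicate 1, where the adjusted p was at most 0.011, and missed the threshold when any of the other 5 arrays was left out, at adjusted p-values of 0.104 to 0.195 (limma). None passed with slide as a block, where the differences within slide 1 were -0.81 for Rgs2, 1.20 for Il6, 0.57 for Zfp36, 0.51 for Il1r1, -0.51 for Ccl9 and -0.47 to -0.36 for the others.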

How the data were processed

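Per the file headers, the deposited intensity of each spot comes from version 11.0.1.1 of Agilent Feature Extraction, and their statistics block records background subtraction and fits of a spatial and a multiplicative trend for each array. Percentiles of the processed signal differ between arrays. A log2 value table that the authors deposited had a median of 6.92 in each of 6 columns. No source used here gives its normalization, so it served as an alternative.

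Control spots and spots with an outlier flag (87 to 394 per array) were left out, and copies of a probe averaged. Each array's 75th percentile was subtracted from its log2 processed signals. A probe was tested if all arrays of 1 or both groups had it well above background. Accessions, without version, were matched to RefSeq genes of GRCm38.p6 for 27234 of 39429 probes, and a gene was read from its brightest probe among those tested. The headers name an earlier build, so only the promoter coordinates of the RefSeq table are given. Groups and replicate numbers came from the labels.

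IL-4 minus PBS was fitted by limma 3.58.1 (lmFit, eBayes) under R 4.3.3, without a block. SE is that of this fit. Differences of the 6 members are a description, and their calls in this fit are counted but not read as a test. The steps were tested on simulated data. Alternatives changed the scaling, background correction (normexp, offset 50, on median spot and background signals, since the files hold no mean spot signal), filter, probe rule, slide, replicate block, slide position and arrays included, and the authors' table. The number of arrays limits the precision. The genes named are the 6 members, the other receptors (1 of them is not reported here), up to 4 called genes per list and the 3 genes most like each member that was well above background on all arrays, of which the nearest are given. List genes given as not passing were chosen after their values were seen. The members and lists were chosen with earlier results of these data known.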

Additional observations from a re-analysis of the deposited data

How the results depend on the processing

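The differences of Ccl7, Ccl2 and Ccl12 stayed above 0 in all 20 alternatives, and that of Ccl11 in all 19 that tested it. The difference of Ccl8 was below 0 in 18 of 20 and became 0.048 with slide as a block and on slide 1 alone. That of Ccr2 was below 0 in 18 of 20, became 0.028 in the same 2 fits and -0.32 with slide position as a block. Ccl12 was 0.79 with normexp and the 75th percentile and 0.78 with normexp and quantile. The position alternatives were chosen after seeing the data.

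The counts of calls changed far more, from 240 genes higher and 757 lower (3 and 7 in the pathway lists). Scaling to the median gave 531 and 1202, with 5 list genes higher. Quantile normalization gave 833 and 1803, with 11 list genes lower, and the percentile taken over bright probes only (well above background everywhere) 107 and 416, with 3 list genes lower. Normexp gave 2030 and 2025 with the 75th percentile (7 and 15 in the lists) and 976 and 2101 with quantile (6 and 15). The authors' table gave 667 and 1621. The stricter filter gave 1830 and 1978 (7 and 12), no filter 5 and 10 (0 and 0), and the mean of a gene's probes 117 and 488. With slide as a block 6 and 3 were called (0 and 0), on slide 1 alone 1 and 0 (0 and 0), where the lone PBS array is assumed to vary like the IL-4 arrays. Without the first slide position it was 0 and 0 (0 and 0), and with slide position as a block 5052 and 7227 (9 and 36). Leaving out 1 array gave 0 to 5812 genes higher and 0 to 6845 lower, and 0 to 14 and 0 to 33 in the lists; the highest counts are without PBS replicate 1. In the 3 settings without any call, limma at an unadjusted p under 0.05 gave 1785 to 3907 genes higher and 1878 to 3421 lower, and in the lists 9 to 12 and 12 to 20. In the lists, that threshold gave 10 higher and 9 lower with the slide block, 9 and 8 on slide 1 alone (1603 lower among all genes) and 13 and 27 without a filter. The cause of these shifts was not tested. The median of all differences moved from -0.05 to at most 0.0055 and at least -0.12.

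With the replicate block 1804 genes were higher and 1966 lower (7 and 15 in the lists). Deviations of same-numbered arrays correlated at 0.08, -0.02 and 0.30, against -0.19 to 0.06 for arrays of unlike number. These values do not settle whether the numbers pair the samples, and the main fit assumed no pairing. Ccr1 differed by -0.33 with slide as a block and on slide 1 alone, by 0.012 with normexp and quantile and by -0.19 to 0.074 when 1 array was left out, with 0.045 without IL-4 replicate 2 and 0.074 without PBS replicate 1, and Ackr2 by -0.20 with the mean of its probes.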
